A study of Mus musculus with 6 samples.

Results

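The genes described here encode 8 classic targets of organ-specific autoimmunity, chosen by name as textbook autoantigens, with earlier results of these data known: Ins2 (insulin, made by the beta cells of the pancreatic islet), Tg (thyroglobulin, the scaffold of thyroid hormone), Rbp3 (the retinoid-binding protein between photoreceptors and pigment epithelium, a target in uveitis), Atp4a and Atp4b (the catalytic and the accessory subunit of the gastric proton pump), Mog and Mbp (proteins of the myelin sheath) and Chrna1 (the subunit of the muscle acetylcholine receptor that holds the main target of antibodies in myasthenia gravis). They were matched by symbol to 8 of the 52636 gene rows of the count table, and all 8 passed the filter on low counts (32496 genes in all).

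Medullary thymic epithelial cells (mTEC) transcribe many genes that are otherwise restricted to single peripheral organs, and present their products to developing T cells so that self-reactive clones are deleted or diverted into the regulatory lineage. The transcriptional facilitator Aire and the transcription factor Fezf2 drive large, different parts of this promiscuous expression, and Ins2 and Rbp3 belong to the best-known genes that depend on Aire. A given antigen is usually transcribed in a small fraction of mTEC at a time. Tuft-like mTEC resemble the chemosensory tuft cells of the gut, and the comparison asked what the non-tuft-like cells of the same gate are and whether features of the tuft-like transcriptome appear in them.

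Thymic epithelial cells of C57BL/6 wild-type mice at 6 weeks of age were sorted into 2 populations of 3 libraries each. Both bound the lectin UEA1, were low for MHCII and lacked Sca1 and CD63, and CD80 was negative by the labels and low by the definition in the study. Tuft-like mTEC were positive for both CD117 and CD66a, whereas non-tuft-like mTEC were negative for both, and no cells were treated. How many animals stood behind each library is not given in the sources used here, so p-values measure the spread between these libraries. Reads assigned to genes numbered from 20097617 to 48369825 per library. Reads that the counting program HTSeq assigned to no feature can include intronic reads as well as reads outside genes. They made up 34.4%, 36.6% and 52.5% of the table in non-tuft-like replicates 1 to 3. In tuft-like replicates 1 to 3 they made up 61.6%, 47.6% and 19.7%, with replicates 1 and 3 at opposite ends. The 1134 olfactory receptor genes, taken below as a measure of background, followed the same order and held between 0.0203% (tuft-like replicate 3) and 0.277% (tuft-like replicate 1) of the gene counts. All 10 tuft cell genes of a fixed marker list (among them Dclk1, Trpm5 and Pou2f3) were called higher in tuft-like mTEC. Of all tested genes 2.11% were called, in either direction. Less RNA per cell and fewer cells that carry a transcript cannot be told apart in bulk libraries.

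Promoters of 4 of the 8 genes (Rbp3, Atp4a, Mog and Chrna1) were found in a RefSeq table of the build GRCm38.p6. Those of Chrna1, Rbp3 and Atp4a are shown because the first and second carry motifs of factors specific to muscle and photoreceptors, whose own counts are given below, and the third belongs to the most abundant of these 4 genes. Each line gives the 250 bases before the annotated start, 5′ to 3′ on the strand of the gene. Capitals mark CAGCTG, an E-box bound by myogenic factors such as Myog and Myod1, and GGATTA, the core bound by the photoreceptor factor Crx, searched on both strands. These letters do not overlap each other.
Chrna1 (chr2:73580339-73580588, minus strand): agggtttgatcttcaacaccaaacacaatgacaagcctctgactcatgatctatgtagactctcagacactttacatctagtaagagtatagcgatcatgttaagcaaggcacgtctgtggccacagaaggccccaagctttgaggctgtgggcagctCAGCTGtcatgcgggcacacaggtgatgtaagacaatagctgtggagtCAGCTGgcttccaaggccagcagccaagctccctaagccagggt
Rbp3 (chr14:33953753-33954002, plus strand): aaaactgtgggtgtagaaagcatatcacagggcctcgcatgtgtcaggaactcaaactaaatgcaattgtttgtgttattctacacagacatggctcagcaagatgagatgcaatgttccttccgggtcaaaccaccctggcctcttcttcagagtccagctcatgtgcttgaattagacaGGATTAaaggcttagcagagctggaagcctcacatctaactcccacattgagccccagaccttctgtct
Atp4a (chr7:30711959-30712208, plus strand): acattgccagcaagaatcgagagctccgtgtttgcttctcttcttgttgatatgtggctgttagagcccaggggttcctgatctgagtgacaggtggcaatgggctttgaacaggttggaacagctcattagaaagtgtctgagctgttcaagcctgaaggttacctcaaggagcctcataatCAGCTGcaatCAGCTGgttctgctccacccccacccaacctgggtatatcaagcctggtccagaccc

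CAGCTG stood 2 times in the Chrna1 window and 2 times in that of Atp4a. Of 32851 promoters of the same length, 13% held it at least once and 1.26% at least 2 times. GGATTA occurred 1 time in the Rbp3 window, and 6.25% of all promoters held it. The Mog window held neither motif.

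None of the 8 genes was called different between the populations. EdgeR's quasi-likelihood test gave an FDR of 1 for each of them, 0 of 8 had an unadjusted p under 0.05, and DESeq2 and limma voom also called 0 of 8 (DESeq2 gave no adjusted p for Rbp3 and Mog). Over all 32496 tested genes the same test called 687, or 2.11%, and 8.97% had an unadjusted p under 0.05, while DESeq2 called 5.85% and limma voom 2.78%. Levels are given in CPM, counts scaled to a common library size with TMM factors. For each of the 8 genes the libraries of the populations overlapped, where 16% of all tested genes showed no overlap. The log2 fold changes (tuft-like over non-tuft-like) had a median of -0.15, beside 0.0212 over all tested genes, and 3 of the 8 were above 0. The count of 687 fell to 379 without non-tuft-like replicate 2 and to 376 without tuft-like replicate 2.

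**Figure D1:**
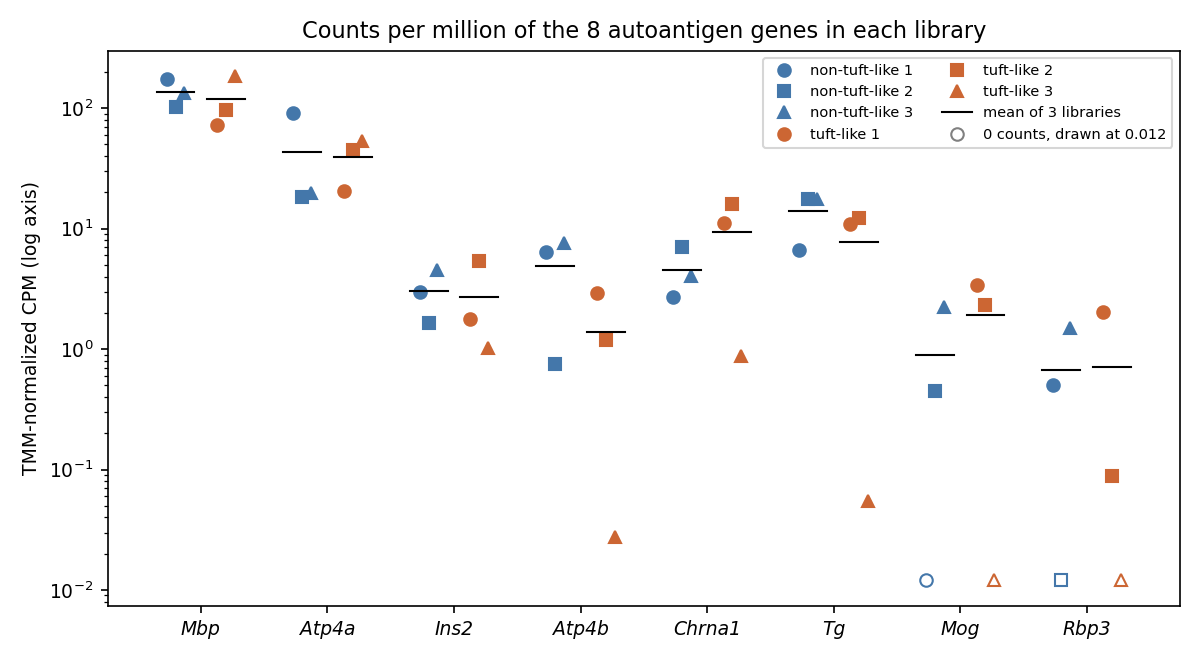
TMM-normalized CPM, on a log axis, for each gene and library; genes are ordered by their mean level per exon length, short horizontal lines are the means of 3 libraries, and open symbols are libraries at 0 counts. The populations overlap for each gene, Mbp and Atp4a lie highest, and tuft-like replicate 3 is the lowest library for Tg and Atp4b.

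Mbp, the basic protein that compacts myelin, was the most abundant of the 8. The Mbp locus (ENSMUSG00000041607, mm10 chromosome 18, 82475146 to 82585637) also gives rise to the longer golli transcripts, which blood cells and thymus make, and counts per gene do not separate them from myelin transcripts. Its counts were 5473, 4846 and 4225 in non-tuft-like and 1746, 3321 and 6714 in tuft-like replicates 1 to 3. Tuft-like replicate 3 was the highest and tuft-like replicate 1 the lowest library in CPM, so that the tuft-like libraries enclosed all non-tuft-like ones. The means were 137 ± 34.8 and 118 ± 59.5 CPM (SD, n = 3 each), with a log2 fold change of -0.21 (95% interval -1.05 to 0.63).

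Mog, an immunoglobulin-like protein on the outer face of myelin and a main target in experimental encephalomyelitis (ENSMUSG00000076439, chromosome 17, 37010743 to 37023398), was rare. Its counts were 0, 21 and 70 in non-tuft-like and 83, 80 and 0 in tuft-like replicates 1 to 3. A count of 0 allows up to 0.0947 CPM in non-tuft-like replicate 1 and 0.0828 CPM in tuft-like replicate 3, taking 3 counts as the limit. Each population thus held 1 library without a read and at least 1 with 70 or more. The log2 fold change of 1.11 had an interval from -3.74 to 5.95, and it ranged from 0.397 without tuft-like replicate 1 to 3.05 without non-tuft-like replicate 3. The 4 libraries with Mog reads were those with the largest shares of olfactory receptor reads, and the part of that background in the Mog reads was not tested.

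Atp4a (ENSMUSG00000005553, chromosome 7, 30712209 to 30725534) and Atp4b (ENSMUSG00000031449, chromosome 8, 13386205 to 13396825) form 1 enzyme in the parietal cell, and their counts are given side by side. Atp4a had 2861, 866 and 627 counts in non-tuft-like and 502, 1525 and 1914 counts in tuft-like replicates 1 to 3. Non-tuft-like replicate 1 stood alone at 90.3 CPM, 4.9 times the level of non-tuft-like replicate 2, and the other libraries lay between 18.4 and 52.9 CPM. The population means were 42.9 ± 41.1 CPM in the non-tuft-like and 39.4 ± 16.7 CPM in the tuft-like libraries (SD, n = 3 each). The log2 fold change of Atp4a was -0.12 (95% interval -1.48 to 1.24) and turned to 1.02 without non-tuft-like replicate 1 (edgeR FDR 0.847).

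Atp4b had 203, 35 and 237 counts in non-tuft-like and 71, 41 and 1 in tuft-like replicates 1 to 3. Tuft-like replicate 3, the library with the second highest CPM of Atp4a, therefore held 1914 reads of the catalytic subunit and a single read of its partner. Per exon length the ratio of Atp4a to Atp4b ran from 1.06 in non-tuft-like replicate 3 to 14.9 in tuft-like replicate 2 among the 5 libraries with at least 35 reads of Atp4b. Mean levels of Atp4b were 4.89 ± 3.64 CPM in the non-tuft-like and 1.39 ± 1.46 CPM in the tuft-like libraries (SD, n = 3 each). Its log2 fold change of -1.82 was the lowest of the 8, with a 95% interval from -5.21 to 1.57 and an exact permutation p of 0.3 (two-sided, n = 3 each; the smallest p that 3 libraries against 3 allow is 0.1). It stayed below 0 whichever library was left out (-2.99 to -1.28).

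Tg is transcribed in thyrocytes, and its 8883 exonic bases are the most of the 8 genes (ENSMUSG00000053469, chromosome 15, 66670753 to 66850721). Its counts were 212, 821 and 552 in non-tuft-like and 263, 418 and 2 in tuft-like replicates 1 to 3. Tuft-like replicate 3 was all but empty for Tg, whereas the other 5 libraries lay between 6.69 and 17.5 CPM. The log2 fold change of -0.85 (95% interval -3.50 to 1.80) shrank to -0.31 without tuft-like replicate 3. A non-coding gene on the other strand, Gm17140, shares 112 of the exonic bases, and which strand was counted is not given in the sources used here.

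Ins2 (ENSMUSG00000000215, chromosome 7, 142678656 to 142743381) had 94, 78 and 143 counts in non-tuft-like and 43, 183 and 37 counts in tuft-like replicates 1 to 3. It was read in all 6 libraries, with the highest and the lowest CPM both in tuft-like mTEC (5.35 in replicate 2 and 1.02 in replicate 3). The means were 3.06 ± 1.44 and 2.72 ± 2.31 CPM (SD, n = 3 each), and the log2 fold change of -0.17 had a 95% interval from -2.78 to 2.44. Ins1, the close retrocopy that encodes the second mouse insulin, had 33, 0 and 0 counts in non-tuft-like and 21, 30 and 0 in tuft-like replicates 1 to 3. Reads that fit both insulin genes equally well may be missing from both. Ins2 had more counts than Ins1 in each of the 6 libraries.

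Chrna1 (ENSMUSG00000027107, chromosome 2, 73563215 to 73580338) had 85, 328 and 127 counts in non-tuft-like and 270, 550 and 32 in tuft-like replicates 1 to 3. Tuft-like replicates 1 and 2 were the highest libraries, at 11.2 and 16.1 CPM, while replicate 3 of the same population was the lowest, at 0.884 CPM. Means of 4.57 ± 2.20 CPM in the non-tuft-like and 9.37 ± 7.75 CPM in the tuft-like libraries (SD, n = 3 each) gave a log2 fold change of 1.04 (95% interval -1.20 to 3.27). Without tuft-like replicate 3 it was 1.53 (edgeR FDR 0.357), and the remaining 2 tuft-like libraries then lay above all 3 non-tuft-like ones. Of the myogenic factors that bind the E-box shown above, Myog stood at 84.6 ± 10.9 CPM in the non-tuft-like and 90.4 ± 41.0 CPM in the tuft-like libraries (SD, n = 3 each), and Myod1 reached at most 39 counts in a library.

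Rbp3 (ENSMUSG00000041534, chromosome 14, 33954003 to 33964216) was the rarest of the 8. It had 16, 0 and 47 counts in non-tuft-like and 49, 3 and 0 counts in tuft-like replicates 1 to 3. A count of 0 allows up to 0.0639 CPM in non-tuft-like replicate 2 and 0.0828 CPM in tuft-like replicate 3. Most of its 115 reads came from replicate 3 of the non-tuft-like and replicate 1 of the tuft-like population. These libraries had the largest shares of reads assigned to no feature. The log2 fold change of 0.08 had a 95% interval from -5.21 to 5.36. Crx, whose motif stands in the Rbp3 promoter above, had 157, 10 and 112 counts in non-tuft-like and 100, 58 and 2 in tuft-like replicates 1 to 3. Like Rbp3, Crx did not exceed the background level defined below in any library.

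**Figure D2:**
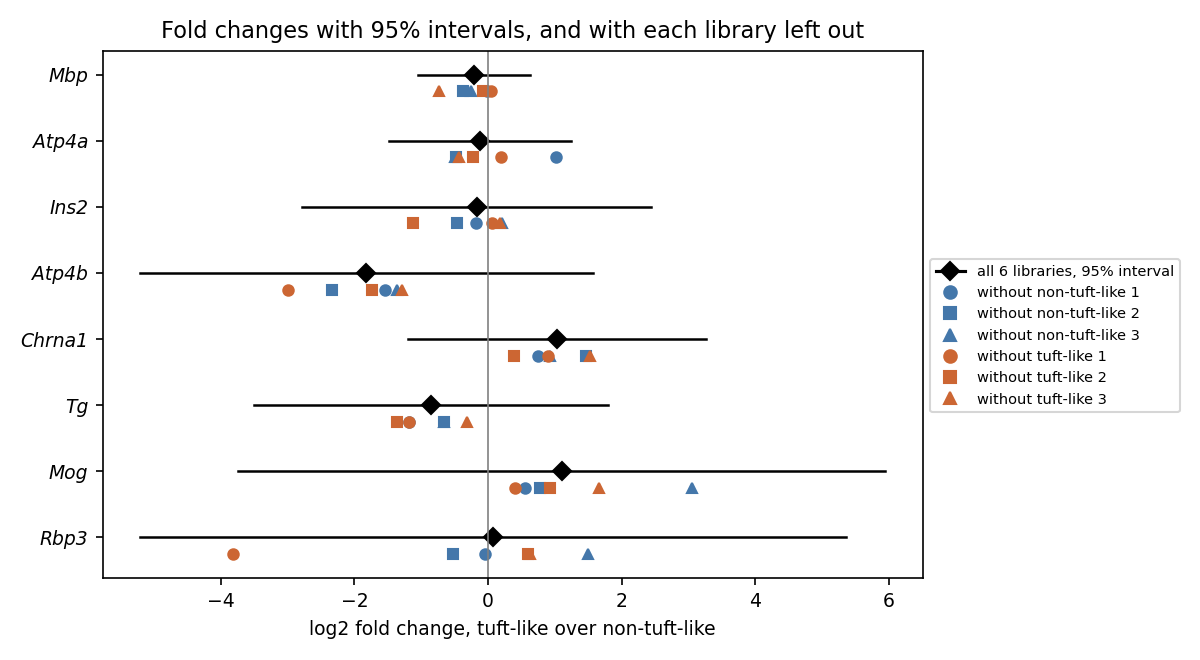
The log2 fold change of each gene (tuft-like over non-tuft-like) with its 95% interval from edgeR's quasi-likelihood test (diamonds and lines), and the fold change with each library left out (small symbols). All 8 intervals include 0, and the interval of Mbp is the narrowest (-1.05 to 0.63).

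To compare levels between genes, CPM were divided by the annotated exon length. In this unit (CPM per exon kb, mean ± SD over all 6 libraries) Mbp had 15.1 ± 5.29, Atp4a 10.9 ± 7.47, Ins2 2.20 ± 1.32, Atp4b 2.08 ± 2.08, Chrna1 1.59 ± 1.31, Tg 1.22 ± 0.754, Mog 0.826 ± 0.851 and Rbp3 0.129 ± 0.164. The ranges of Atp4a (lowest 4.90) and Ins2 (highest 4.08) did not overlap, and Atp4a exceeded Ins2 in all 6 libraries. All other neighbours in this order overlapped. Exon lengths join all annotated transcripts of a gene, so the level of a gene with a short main transcript, such as Ins2, is understated.

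Reads of olfactory receptor genes give a scale for such low levels. Their 99th percentile, taken here as the background level of a library, lay between 1.24 (tuft-like replicate 3) and 2.75 (tuft-like replicate 1) CPM per exon kb. Mbp and Atp4a exceeded it in all 6 libraries, by at least 3.10 and 1.95 times. Ins2 did so in 3 libraries (non-tuft-like replicates 1 and 3 and tuft-like replicate 2), Atp4b in 2 (non-tuft-like replicates 1 and 3), Tg in 1 (non-tuft-like replicate 2) and Chrna1 in 1 (tuft-like replicate 2). Rbp3 and Mog stayed below it in every library, so that their reads could not be told from background. For comparison, 37.9% of 21896 protein-coding genes exceeded it in all 6 libraries, 29.4% in 1 to 5 and 32.7% in 0. At the 95th percentile Mbp and Atp4a were again above in all 6 libraries, Ins2 in 5, Chrna1 in 4, Tg and Atp4b in 3, Mog in 2 and Rbp3 in 0. mTEC are known to transcribe olfactory receptor genes at a low level too, so this scale is not free of expression.

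**Figure D3:**
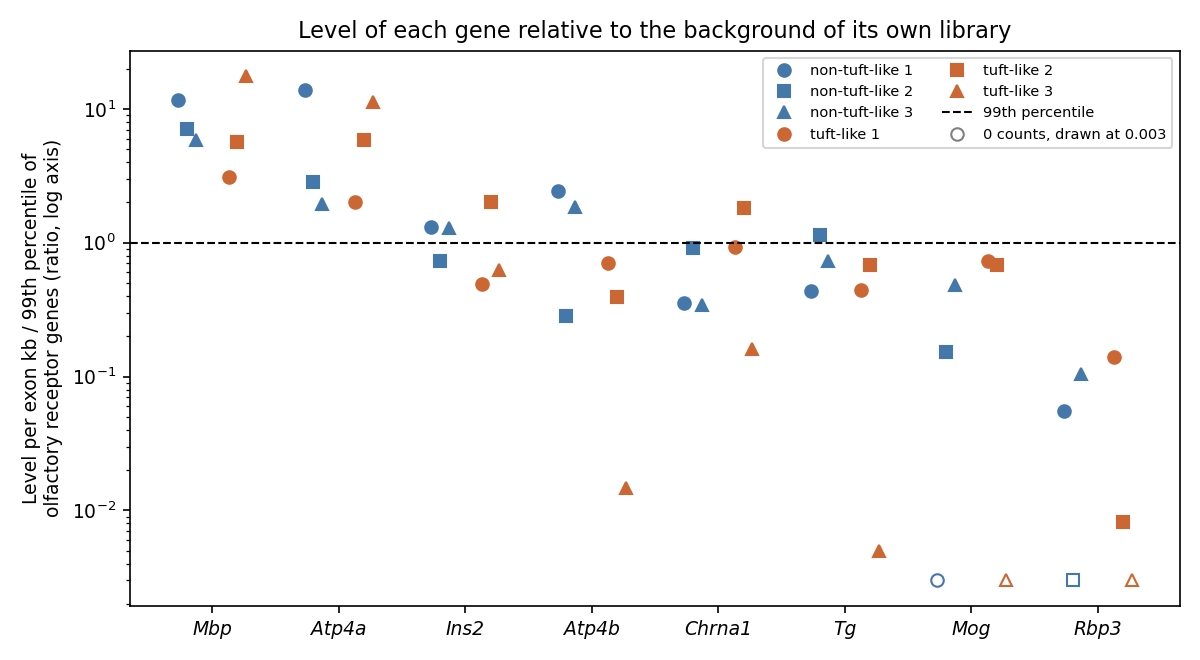
Level of each gene per exon length divided by the background level of the same library (99th percentile among olfactory receptor genes), on a log axis; the dashed line marks a ratio of 1 and open symbols are libraries at 0 counts. Mbp and Atp4a lie above the line in all 6 libraries, whereas Mog and Rbp3 lie below it in all 6.

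In tuft-like replicate 3, the library with the lowest background, 4 of the 8 genes had more than 3 reads (Mbp, Atp4a, Ins2 and Chrna1), against 7 or 8 in each other library. Mbp and Atp4a made up 99.2% of the summed CPM of the 8 genes there, and between 74.3% and 93.2% in the other libraries. Whether the number of sorted cells or the background of a library sets these differences was not tested.

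Aire and Fezf2 were both lower in tuft-like mTEC. Aire fell by 3.83 on the log2 scale (95% interval -4.50 to -3.16), from 292 ± 53.3 to 20.5 ± 2.56 CPM (SD, n = 3 each; edgeR FDR 0.000334). Fezf2 fell by 2.72 on the log2 scale, from 231 ± 20.1 to 35.2 ± 6.80 CPM (95% interval -3.35 to -2.09; edgeR FDR 0.000886). Both changes were called in each of 14 alternative settings. They belong to a list of 10 genes of mature mTEC, of which 7 were called lower in tuft-like mTEC and 9 did not overlap. Over all tested genes 2.11% were called and 16% did not overlap, in either direction. Among the others called lower were Cd40 (log2 fold change -3.61, edgeR FDR 0.00352), the MHC class II regulator Ciita (-2.97, FDR 0.00114) and Cd74 (-2.35, FDR 0.0372). Of 5 epithelial genes Foxn1 (-3.48, FDR 0.00043) and Krt14 (-3.49, FDR 0.000885) were called lower, and Krt5 (-3.02, FDR 0.0985) was not called. Krt8 (0.67) and Epcam (0.1) lay above 0 and were not called. The part of these differences between the populations in the levels of the 8 genes was not tested. The log2 fold changes of Ins2 and Rbp3 were -0.17 and 0.08 in the same libraries, with intervals that still include the fold change of Fezf2 for Ins2 (lower bound -2.78) and those of both regulators for Rbp3. The intervals of Atp4a, Chrna1 and Mbp (lower bounds -1.48, -1.2 and -1.05) lay above both regulators' fold changes. Those of Tg and Mog (lower bounds -3.5 and -3.74) included the fold change of Fezf2 only, and that of Atp4b (lower bound -5.21) included both. The fold changes of the regulators have intervals of their own, which this comparison leaves out. Rbp3 and Mog stayed below the background level in every library, so their intervals cannot describe a target. How far the level of a target follows that of a regulator was not tested, and no conclusion is drawn from these bounds.

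Other autoantigens of these and further organs were taken from a fixed list of 55 genes. Of the 54 tested, edgeR's quasi-likelihood test called 1 higher and 1 lower in tuft-like mTEC, beside 2.11% of all tested genes. Nothing is read from this count. The median log2 fold change of the 54 was -0.07. The gene called higher was Mag, a sialic-acid-binding adhesion protein of myelin and a target of antibodies in demyelinating neuropathy (ENSMUSG00000036634, chromosome 7, 30899176 to 30914873). It had 28, 235 and 138 counts in non-tuft-like and 1563, 3023 and 4474 counts in tuft-like replicates 1 to 3. The populations did not overlap, with means of 92.2 ± 29.7 against 3.42 ± 2.22 CPM (SD, n = 3 each) and a log2 fold change of 4.74 (95% interval 3.37 to 6.12, edgeR FDR 0.00284). With each library left out it stayed between 4.27 and 5.13, and all 14 alternatives called it.

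Cnp, an enzyme of myelin-forming cells, had 193 ± 50.7 CPM in the non-tuft-like and 161 ± 46.5 CPM in the tuft-like libraries (SD, n = 3 each; log2 fold change -0.26, 95% interval -0.98 to 0.46). Of 10 identity genes of oligodendrocytes, 0 exceeded the background level in all 6 libraries and 1 did so in all 3 tuft-like libraries. This was Ugt8a, an enzyme of myelin lipid synthesis, at 6.01 ± 2.22 CPM in the non-tuft-like and 17.3 ± 6.16 CPM in the tuft-like libraries, which did not overlap (SD, n = 3 each; log2 fold change 1.52, edgeR FDR 0.418). Sox10, a factor that oligodendrocytes and Schwann cells share, had 1, 50 and 170 counts in non-tuft-like and 5, 0 and 0 in tuft-like replicates 1 to 3. The gene called lower was Dsg1a, a desmosomal cadherin of the epidermis and the target in pemphigus foliaceus, at 187 ± 46.5 CPM in the non-tuft-like and 20.7 ± 2.04 CPM in the tuft-like libraries (SD, n = 3 each; log2 fold change -3.18, edgeR FDR 0.000689). Its close copies Dsg1b and Dsg1c can share its reads, which makes the level uncertain.

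Among the islet autoantigens edgeR's quasi-likelihood test called 0 of 10, with 1 at an unadjusted p under 0.05 (Chga, which DESeq2 and limma voom called). Of all tested genes edgeR called 2.11%, and 8.97% had an unadjusted p under 0.05. Chga, a granule protein of neuroendocrine cells, had 2010 ± 797 CPM in the non-tuft-like and 734 ± 314 CPM in the tuft-like libraries (SD, n = 3 each; log2 fold change -1.45, edgeR FDR 0.189), and its libraries did not overlap. Iapp, the amylin that beta cells release together with insulin, was read far more often than Ins2, at 483 ± 143 CPM in the non-tuft-like and 617 ± 182 CPM in the tuft-like libraries (SD, n = 3 each; log2 fold change 0.35, 95% interval -0.44 to 1.15). Per exon length this was 496 and 633 CPM per kb, beside 2.33 and 2.07 for Ins2. Of the islet factors, Isl1 stood at 152 and 83.8 CPM in non-tuft-like and tuft-like mTEC (log2 fold change -0.86, edgeR FDR 0.464), whereas Mafa had 0 counts in all 6 libraries and Pdx1 had 0, 18 and 27 in non-tuft-like and 24, 55 and 0 in tuft-like replicates 1 to 3.

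For the thyroid, the hormone receptor Tshr had between 2 and 137 counts in a library and was lowest in tuft-like replicate 3, as Tg was. The iodide transporter Slc5a5 differed in that this library was its highest (1727 counts, against 304 to 693 in the others). The factors that thyrocytes need had different patterns. Nkx2-1 had 0, 0 and 28 counts in non-tuft-like and 2, 0 and 0 in tuft-like replicates 1 to 3. Foxe1 had 5, 27 and 21 counts in non-tuft-like and 44, 128 and 293 in tuft-like replicates 1 to 3, without overlap in CPM and with a log2 fold change of 3.27 that was not called (edgeR FDR 0.46). Hhex, with a log2 fold change of 1.66, was not called either (edgeR FDR 1), and Pax8 went the other way (-0.94, not called). So did the thyroid identity gene Iyd, without overlap (log2 fold change -2.78, edgeR FDR 0.347). Of the 8 tested thyroid identity genes 3 had a log2 fold change above 0 and 5 below 0, with a median of -0.29. DESeq2 called 2 of these 8, beside 5.85% of all tested genes. The retinal autoantigen Sag, an arrestin of photoreceptors, had mean levels of 3.58 and 3.24 CPM per exon kb in non-tuft-like and tuft-like mTEC, beside 0.126 and 0.133 for Rbp3. Sag exceeded the background level in 2 of the 3 libraries of each population, and Rbp3 in 0. For the stomach, Kcne2, the channel subunit that serves the proton pump, had 2, 0 and 89 counts in non-tuft-like and 27, 18 and 0 in tuft-like replicates 1 to 3. Kcnq1, the channel that Kcne2 joins, stood at 70.1 ± 11.3 CPM in the non-tuft-like and 170 ± 37.7 CPM in the tuft-like libraries, which did not overlap (SD, n = 3 each; log2 fold change 1.28, edgeR FDR 0.0534). Slc26a9 went the other way, at 27.2 ± 3.93 CPM in the non-tuft-like and 2.51 ± 2.81 CPM in the tuft-like libraries, without overlap (SD, n = 3 each). Its log2 fold change of -3.44 was not called (edgeR FDR 0.215). DESeq2 called 2 and limma voom 1 of the 6 stomach identity genes, beside 5.85% and 2.78% of all tested genes. Cblif, the intrinsic factor of parietal cells in humans and a target in pernicious anaemia, had at most 74 counts.

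Of the other subunits of the muscle acetylcholine receptor, Chrnb1 exceeded the background level in all 6 libraries, Chrnd in 2, and Chrng and Chrne in 0. Chrnb1, the beta subunit, had 12.3 and 13.7 CPM in the non-tuft-like and tuft-like mTEC and Chrnd, the delta subunit, 5.83 and 5.99 CPM. Chrng, the fetal gamma subunit, had 3.85 and 1.70 CPM, and Chrne, its adult substitute, 3.08 and 1.32 CPM. None of the 9 other muscle endplate autoantigens was called (edgeR's quasi-likelihood test, DESeq2 and limma voom, with 0 at an unadjusted p under 0.05). Of all tested genes these tests called 2.11%, 5.85% and 2.78%, and 8.97% had an unadjusted p under 0.05 in edgeR.

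Genes that define the source organs were counted in the same way. Of 56 such genes 49 were tested, and edgeR's quasi-likelihood test called 0 of them, with 7 at an unadjusted p under 0.05, whereas DESeq2 called 4 and limma voom 1. Over all tested genes the shares were 8.97%, 5.85% and 2.78%, and nothing is read from these counts. Their median log2 fold change was -0.19. The background level was exceeded in all 6 libraries by 9 of the 56, namely Isl1 and Pcsk1 for the islet, Slc26a4 and Dio1 for the thyroid, Rom1 for the retina, Kcnq1 and Esrrg for the stomach and Myog and Acta1 for muscle. A further 28 exceeded it in 0 libraries.

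**Figure D4:**
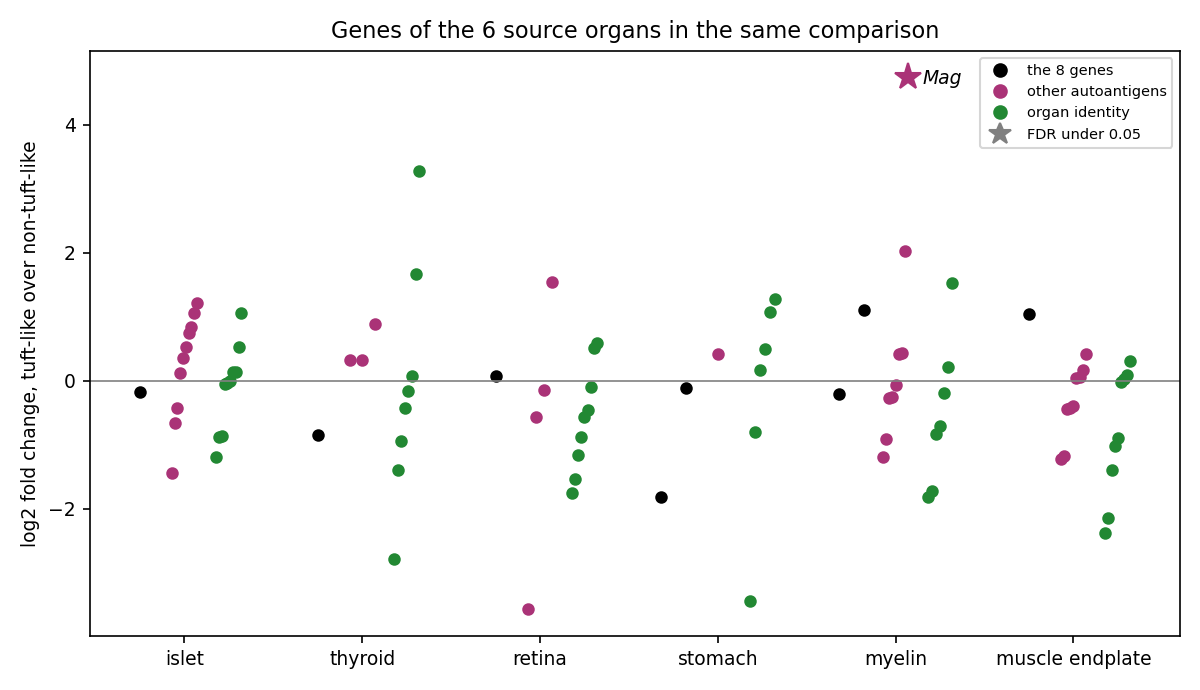
Log2 fold changes (tuft-like over non-tuft-like) of the 8 genes, of other autoantigens and of organ identity genes, by source organ; stars mark genes called at an FDR under 0.05. Mag, at 4.74, is the only star in these 6 organs, and the 8 genes lie between -1.82 and 1.11.

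Close relatives of the pump and of the receptor were also read. Atp12a, the non-gastric proton pump, had 78.3 ± 31.8 CPM in the non-tuft-like and 13.4 ± 10.7 CPM in the tuft-like libraries (SD, n = 3 each). Its log2 fold change of -2.55 was not called (edgeR FDR 0.109), and an antisense gene shares 557 of its exonic bases. Chrna10, a receptor subunit of cochlear hair cells, was not called at a log2 fold change of 1.45 (edgeR FDR 0.129), and Art1 on the other strand shares 1025 of its 2628 exonic bases.

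Markers of other thymic cells were read to varying extents. Of 10 thymocyte genes 0 exceeded the background level throughout either population, their summed CPM ran from 25.7 to 48.5 in non-tuft-like and from 52.7 to 89.8 in tuft-like mTEC. EdgeR called 0 of them, with 1 at an unadjusted p under 0.05, and DESeq2 called 1. Over all tested genes these shares were 2.11%, 8.97% and 5.85%. Themis stood at 3.60 ± 1.69 CPM in the non-tuft-like and 22.0 ± 10.1 CPM in the tuft-like libraries, which did not overlap (SD, n = 3 each; log2 fold change 2.61, edgeR FDR 0.0734). Ptprc, which encodes the haematopoietic marker CD45, was not called at a log2 fold change of 1.42 (edgeR FDR 0.61). The defining T cell gene Cd3d had 24, 0 and 15 counts in non-tuft-like and 2, 35 and 0 in tuft-like replicates 1 to 3. Of 6 Schwann cell genes Egr2 made up most of the summed CPM of 212 to 233 in non-tuft-like and 147 to 238 in tuft-like mTEC. Prx, another of these 6 genes, had 0, 391 and 129 counts in non-tuft-like and 399, 639 and 2049 in tuft-like replicates 1 to 3. Its log2 fold change of 2.88 was not called (edgeR FDR 0.55), and an antisense gene shares 300 of its exonic bases. The 5 fibroblast genes summed to between 38.1 and 129 CPM in a library. The 4 endothelial genes summed to 32.9 to 58.8 CPM in the non-tuft-like and 165 to 327 CPM in the tuft-like libraries. Tek, at 169, 142 and 225 CPM in tuft-like replicates 1 to 3, made up most of these tuft-like sums. It was called higher (log2 fold change 2.93, edgeR FDR 0.00565), whereas Pecam1, Kdr and Cdh5 were not called. In tuft-like replicates 1 to 3 Pecam1 had 106, 8.16 and 3.07 CPM, and Kdr 41.2, 12.7 and 0.221 CPM. The part of these cells in the levels of the 8 genes was not tested.

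The genes most like each of the 8 over the 6 libraries were read off as the 2 highest Pearson correlations of log2(CPM + 1) among 17524 genes whose mean reached 1 CPM. They describe these libraries only, since several genes out of so many come close to any pattern of 6 points, and depth and background are shared. For Rbp3 they were the vomeronasal receptor gene Vmn2r86 (0.9945) and the olfactory receptor gene Olfr71 (0.993), both at most 3.76 CPM. For Mog they were Tex21 (0.998) and Kank4 (0.997), and for Tg Lhfpl4 (0.999) and Tnik (0.998). Atp4b ran with Lrrc15 (0.9997) and Samt3 (0.994), and Ins2 with Lrrc57 (0.992) and Pi4ka (0.9895). Chrna1 ran with Plxna4 (0.992) and Npff (0.989), Atp4a with the chemokine gene Cxcl2 (0.986) and Cnksr3 (0.982), and Mbp with Mrps18a (0.999) and the transporter gene Slc4a11 (0.995). Genes with a correlation above 0.95 numbered 268 for Tg, 194 for Mog, 65 for Mbp, 48 for Atp4b, 42 for Chrna1, 36 for Rbp3, 21 for Atp4a and 13 for Ins2.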

How the data were processed

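Libraries were made by the submitters with an ultra-low input kit, and the deposited table holds whole read counts per Ensembl gene without normalization. Per the labels and the methods of the study, reads were trimmed with Trimmomatic 0.36, aligned to mm10 with STAR 2.7.3a and assigned with HTSeq (intersection-nonempty). The annotation release and strand setting are not given in the sources used here. Identifiers were matched to GENCODE M21 (99.7% of rows). The 92 spike-in rows, all 0, and the 5 HTSeq summary rows stayed out of library sizes.

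Groups came from the sample titles. Genes were kept by filterByExpr (minimum count 10, total 15), scaled by TMM and tested with edgeR 4.0.16 (quasi-likelihood F-test, no covariate, R 4.3.3), with Benjamini-Hochberg adjustment over all tested genes and a threshold of 0.05 (FDR). Standard errors are the absolute log2 fold change over the square root of F, and 95% intervals use the degrees of freedom of the fit. The script was tested on simulated counts. Alternatives were RLE factors, library totals, DESeq2 1.42.0, limma voom 3.58.1, 2 other filters, a replicate block, omission of single libraries, subtraction of background per exon base (olfactory receptor genes), and another background percentile. Limits for a count of 0 (3 counts) cover counting error only, since these reads carry no molecular identifiers.

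The members and gene lists were chosen with earlier results of these data known. Genes named are the 8 members, their paralogs and exon overlaps, the genes most like them, and listed genes that were called or most abundant for their organ. Mafa, Pdx1, Nkx2-1, Foxe1, Hhex, Pax8, Iyd, Kcne2, Slc26a9, Sox10, Ugt8a, Crx, Myod1, the receptor subunits and the marker genes named were chosen after seeing their values. Some listed genes are not reported here.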

Additional observations from a re-analysis of the deposited data

How the results depend on the processing

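None of the alternatives called any of the 8 genes that it tested. The filter of at least 10 CPM tested 3 of them (Mbp, Atp4a and Tg), and background subtraction left Rbp3 untested. Directions of Atp4b, Chrna1, Mog and Tg held in every alternative that tested them, within -2.99 to -1.28, 0.0867 to 1.53, 0.397 to 3.05 and -2.98 to -0.307 on the log2 scale. Directions near 0 turned. Atp4a turned to 0.306 under limma voom, 0.306 with the replicate block, and to 1.02 without non-tuft-like replicate 1 and 0.189 without tuft-like replicate 1. Rbp3 turned to -0.489 under limma voom, and to -0.0414 and -0.522 without non-tuft-like replicates 1 and 2 and -3.82 without tuft-like replicate 1. Ins2 turned to 0.217 without non-tuft-like replicate 3, and to 0.0644 and 0.187 without tuft-like replicates 1 and 3, and Mbp to 0.0515 without tuft-like replicate 1. With single libraries left out, Ins2 ranged from -1.13 to 0.217, Rbp3 from -3.82 to 1.49, Atp4a from -0.487 to 1.02 and Mbp from -0.73 to 0.0515. The count of 687 genes called became 1045 with library totals only, 1902 with DESeq2, 1127 without a filter, 1547 at 10 CPM or more and 1055 with background subtracted, and lay between 376 and 922 with each library left out. The causes of these moves were not tested. Deviations from the population means correlated at -0.156, -0.061 and -0.326 within replicate numbers 1 to 3. With 3 libraries per population that also differ in background, these values cannot decide whether libraries of the same number share animals. The sources used here do not say. The replicate block gave 737 calls and 0 among the 8 genes. Rbp3 and Mog had the fewest reads over all libraries (115 and 254), and how far depth or the spread between libraries sets the width of their intervals was not tested.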
